A study of Mus musculus with 14 samples.

Results

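The genes described here are 7 that store, import or export zinc and related metals. They are the metallothioneins Mt1 and Mt2, the ZIP importers Slc39a14, Slc39a8 and Slc39a4, and the ZnT exporters Slc30a1 and Slc30a10. They were chosen by gene symbol, and they are 7 of the 22263 genes of the deposited liver and kidney count tables. The liver table held all 7 and the kidney table held 5 of them, without Slc39a4 and Slc30a10.

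RNA was sequenced from liver and kidney of 12-week-old adult male mice that carry the human angiotensinogen gene as a transgene in the haplotype named Hap -6A. The 4 groups were liver on the normal diet (4 libraries), liver on high salt (4), kidney on the normal diet (3) and kidney on high salt (3). Every group carried the transgene, so the design holds no mouse without it. The labels name neither the promoter that drives the transgene, the strain, nor the salt content or length of the diet. They do not say whether libraries came from separate animals or whether liver and kidney shared them, so p-values measure the spread between these libraries, which may be technical. Bulk RNA cannot tell fewer cells of a type from less RNA per cell.

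Metallothioneins are small cysteine-rich proteins that bind zinc and copper in the cytosol. The factor MTF1 senses free zinc and turns on Mt1, Mt2 and Slc30a1 through short promoter sequences named metal response elements. In liver, metallothioneins and the importer ZIP14, the product of Slc39a14, are also known to be induced by interleukin-6 during the acute phase response, and metallothioneins by glucocorticoids.

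Mt2 and Mt1 lie in the same orientation on chromosome 8, at chr8:94172664-94173568 and chr8:94179082-94180327 (GRCm38, GENCODE M21), 5513 bases apart. Slc39a14 lies at chr14:70303469-70351425, Slc39a8 at chr3:135825279-135888572, Slc39a4 at chr15:76612383-76617384, Slc30a1 at chr1:191906767-191913247 and Slc30a10 at chr1:185454848-185468762. Genes on the opposite strand overlap Mt2 (Gm45774), Slc39a8 (4933401H06Rik), Slc30a1 (1700034H15Rik) and Slc30a10 (Gm2061), and whether counting used strand is not given in the sources used here, so reads of such partners cannot be told apart. Mt1 and Mt2 are close paralogs, and their counts are uncertain to the extent that reads were split between them. Mt2 had a fractional count in 8 of 8 liver libraries and Mt1 in 1 of 8 (tolerance 0.001). Most fractional Mt2 counts thus stood beside a whole Mt1 count, and which gene shared the reads of Mt2 was not tested.

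RefSeq promoters (GRCm38.p6, 250 bases before to 50 after the annotated start) were matched for 5 of the 7 genes. Slc39a14 and Slc39a4 had no entry. The 4 promoters that follow belong to the metallothioneins and exporters and are shown because they hold more than 1 match to the core of the metal response element. Capitals mark the core, TGCACNC or TGCGCNC, on either strand, printed 5′ to 3′ along the strand of the gene.

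Mt1 promoter, chr8:94178839-94179138, + strand: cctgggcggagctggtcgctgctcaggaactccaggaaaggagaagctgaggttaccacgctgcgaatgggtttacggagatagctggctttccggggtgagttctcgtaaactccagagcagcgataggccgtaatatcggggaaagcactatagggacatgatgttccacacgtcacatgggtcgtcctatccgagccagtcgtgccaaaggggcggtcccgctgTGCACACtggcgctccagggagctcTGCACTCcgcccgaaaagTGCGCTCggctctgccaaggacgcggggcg
Mt2 promoter, chr8:94172368-94172667, + strand: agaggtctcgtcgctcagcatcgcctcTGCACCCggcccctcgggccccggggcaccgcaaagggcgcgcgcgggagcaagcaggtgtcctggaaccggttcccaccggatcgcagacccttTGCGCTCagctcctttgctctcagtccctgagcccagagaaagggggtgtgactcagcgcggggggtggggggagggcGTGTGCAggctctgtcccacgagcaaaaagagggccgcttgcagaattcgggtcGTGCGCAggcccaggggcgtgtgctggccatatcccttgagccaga
Slc30a1 promoter, chr1:191906531-191906830, + strand: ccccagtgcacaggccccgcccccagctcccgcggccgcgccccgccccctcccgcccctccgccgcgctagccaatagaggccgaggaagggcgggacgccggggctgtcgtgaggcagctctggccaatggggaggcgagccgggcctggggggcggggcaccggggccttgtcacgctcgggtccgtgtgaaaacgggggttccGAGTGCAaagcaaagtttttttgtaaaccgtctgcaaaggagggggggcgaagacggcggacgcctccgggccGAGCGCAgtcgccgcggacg
Slc30a10 promoter, chr1:185454598-185454897, + strand: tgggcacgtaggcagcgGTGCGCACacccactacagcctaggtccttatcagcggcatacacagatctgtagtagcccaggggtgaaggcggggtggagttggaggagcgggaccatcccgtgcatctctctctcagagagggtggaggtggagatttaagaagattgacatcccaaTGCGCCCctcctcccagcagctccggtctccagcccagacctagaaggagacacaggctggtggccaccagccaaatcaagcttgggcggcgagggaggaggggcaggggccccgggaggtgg

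Within these windows the core occurred 3 times in Mt1, 4 times in Mt2, 2 times in Slc30a1 and 3 times in Slc30a10. In Slc30a10, 2 matches on opposite strands overlap and form 1 run of capitals. Slc39a8, the gene of ZIP8, has 2 annotated promoter windows, with 0 and 1 matches. Of 32851 RefSeq promoters of this length, 25.7% held at least 1 core, 1.97% held 3 or more and 0.517% held 4 or more. The spacing TTCNNNGAA, which STAT factors bind, was in none of the members' windows and in 8.3% of all promoters. The core TGACNNNGC of the antioxidant response element was found 1 time each in the Mt2, Slc30a1 and first Slc39a8 windows, and in 12.4% of all promoters. The full palindrome of the glucocorticoid response element was in no member window and in 0.00913% of all promoters. These are matches of letters, and binding was not measured. Sequence outside the windows was not searched, so the counts do not cover the whole promoter of a gene.

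Libraries held 37267771 to 51487386 counts in liver and 16046069 to 22004915 in kidney. The 6 hepatocyte markers summed to 53645 to 109734 CPM (counts per 1000000 of the TMM-scaled library size) in liver against 843 to 1634 in kidney. The 6 proximal tubule markers summed to 2707 to 4130.2 CPM in kidney against 0.476 to 8.92 in liver, so the tissue labels matched their markers. Normal diet liver library 4 stood apart from the other liver libraries in Mt1, Mt2 and Slc39a14. The diet and tissue fold changes of the members that use it are given with and without it. Mitochondrial genes took 2.3% and 2.06% of the counts in normal diet liver libraries 1 and 2 against 11.3% to 29.6% in the other 6. Libraries 1 and 2 are 2 of the 3 normal diet libraries in the liver fits without library 4. Columns HS5 and HS6 of the high salt liver differed by a chi-square per gene of 1.56, against 9.08 to 61.2 in 11 other pairs of liver libraries of one diet. This is more than counting error alone gives, and they were kept as 2 libraries.

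In liver, the metallothionein Mt1 was lower on high salt in every library, and normal diet library 4 held far more Mt1 and Mt2 than any other library. All CPM use TMM-scaled library sizes. Mt1 measured 26.6, 19.5, 13.1 and 1037 CPM in normal diet libraries 1 to 4, and 3.67, 4.25, 3.78 and 2.70 CPM in high salt libraries HS5 to HS8. The diets did not overlap, and library 4 stood 39.0-fold above the highest of the other normal diet libraries. Without library 4, Mt1 averaged 19.8 ± 6.75 CPM (SD, n = 3) on the normal diet and 3.60 ± 0.649 CPM (SD, n = 4) on high salt.

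Mt2, the second liver metallothionein, measured 1.52, 5.91, 2.26 and 793 CPM on the normal diet and 1.46, 1.22, 1.06 and 0.689 CPM on high salt. Its diets did not overlap either, but normal diet library 1 stood only 1.05-fold above the highest high salt library. Library 4 held 134-fold more Mt2 than the next normal diet library. Mt1 plus Mt2 together came to 1829.9 CPM in library 4, 15.4 to 28.1 CPM in the other normal diet libraries and 3.39 to 5.47 CPM on high salt.

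With all 8 liver libraries, edgeR's quasi-likelihood test called 0 of the 7 members at an adjusted p under 0.05, where it called 1.00% of the 15130 genes tested. At an unadjusted p under 0.05 there were 5 of 7 members, against 21.2% of all genes, and the diets did not overlap for 5 of 7 members, against 12.5% of all genes. DESeq2 called 3 members, Slc39a4, Slc30a1 and Slc30a10, against 7.60% of the 14772 genes it gave an adjusted p, and gave none for Mt1 and Mt2. limma on the deposited normalized values called none. The log2 fold change of Mt1 (high salt minus normal diet) was -6.25 (SE 1.51, edgeR adjusted p = 0.0783) and that of Mt2 was -7.50 (SE 2.09, edgeR adjusted p = 0.11). These large values rest on library 4.

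Without library 4, Mt1 fell by 2.47 on the log2 scale (SE 0.26, edgeR adjusted p = 0.00929), a 5.53-fold lower level on high salt, in 4 of 4 libraries below 3 of 3. Mt2 had a log2 fold change of -1.56 (SE 0.46, edgeR adjusted p = 0.0843) and did not pass. That of Mt2 ran from -1.90 to -0.77 over 10 alternatives, being -0.77 without normal diet library 2 as well (edgeR adjusted p = 0.347). edgeR then called 2 of 7 members, Mt1 and Slc30a10, against 2.68% of 15270 genes, and 5 of 7 did not overlap between the diets, against 21.5% of genes. DESeq2 called 5, adding Mt2, Slc39a4 and Slc30a1, against 16.9% of 14626 genes. Leaving out normal diet library 2 as well, which leaves 2 against 4 libraries, put Mt1 at -2.47 with an edgeR adjusted p of 0.0516, in a fit that called 4 of 15762 genes. Over the 10 alternatives without library 4, the log2 fold change of Mt1 lay between -2.70 and -2.20.

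**Figure D1:**
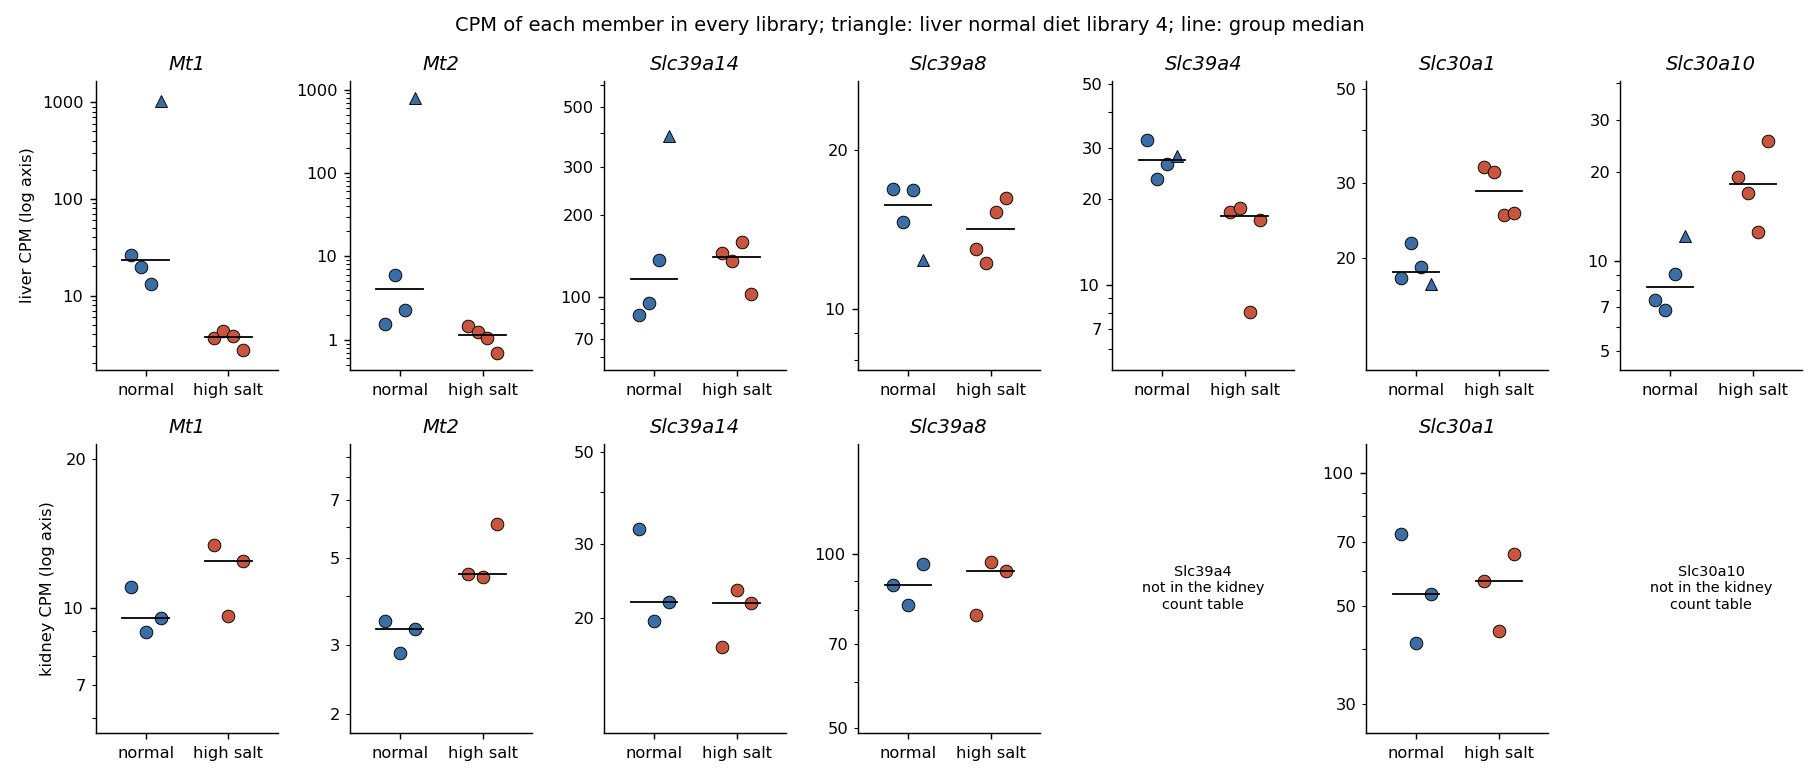
CPM of each gene in every library on a log axis, liver above and kidney below, by diet (blue normal diet, red high salt). Each point is 1 library, lines are group medians, and the triangle is normal diet liver library 4, which reached 1037 CPM for Mt1, 793 for Mt2 and 389 for Slc39a14.

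Among the importers described here, Slc39a14 was the most abundant in liver per kilobase of the principal transcript. Slc39a4 had lower values on high salt, and Slc39a8 was at similar values on both diets. ZIP14, which carries zinc, manganese and iron into hepatocytes, is the product of Slc39a14. Slc39a14 measured 85.9, 94.95, 137 and 389 CPM on the normal diet and 145, 135, 159 and 102.2 CPM on high salt. Library 4 was highest and 2.85-fold above the next normal diet library, while the other normal diet libraries overlapped the high salt range. The log2 fold change was -0.38 (SE 0.44, edgeR adjusted p = 0.634) with all libraries and 0.35 (SE 0.22, edgeR adjusted p = 0.307) without library 4, so the direction turned with that library.

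Slc39a4 encodes ZIP4, best known as the zinc importer of the intestine. Its liver values were 32.1, 23.3, 26.3 and 28.1 CPM on the normal diet and 17.9, 18.6, 8.07 and 16.8 CPM on high salt. All high salt libraries lay under all normal diet libraries, with HS7 lowest, and library 4 lay inside the normal range. The log2 fold change was -0.84 (SE 0.25, edgeR adjusted p = 0.126), and -0.84 (SE 0.27, edgeR adjusted p = 0.0988) without library 4; neither passed, while DESeq2 gave adjusted p-values of 0.0382 and 0.0385.

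Slc39a8, which encodes the zinc and manganese importer ZIP8, measured 16.9, 14.6, 16.8 and 12.4 CPM on the normal diet. On high salt it measured 13.0, 12.2, 15.3 and 16.2 CPM. The diets overlapped, and the log2 fold change was -0.10 (SE 0.16, edgeR adjusted p = 0.754), or -0.20 (SE 0.16, edgeR adjusted p = 0.42) without library 4.

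The exporters described here had higher values on high salt in liver, with Slc30a10 past the test without library 4. Other ZnT exporters were divided: of 6 tested, 3 had a higher and 3 a lower fitted value on high salt. Without library 4 these were 2 and 4, and edgeR called 0 in either fit. Slc30a1 encodes ZnT1, the zinc exporter of the plasma membrane. It measured 17.9, 21.7, 19.1 and 17.4 CPM on the normal diet and 32.7, 31.9, 25.3 and 25.5 CPM on high salt. The lowest high salt library was 1.17-fold above the highest normal diet library, and library 4 was the lowest of all. The log2 fold change was 0.60 (SE 0.15, edgeR adjusted p = 0.0851), or 0.55 (SE 0.16, edgeR adjusted p = 0.0799) without library 4, and DESeq2 gave adjusted p-values of 0.0141 and 0.0227.

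Slc30a10 encodes ZnT10, a manganese exporter of hepatocytes and other cells. It measured 7.39, 6.87, 9.06 and 12.2 CPM on the normal diet and 19.4, 17.1, 12.6 and 25.5 CPM on high salt. The diets did not overlap, and library 4 was the highest normal diet library, just under HS7. The log2 fold change was 1.07 (SE 0.25, edgeR adjusted p = 0.0755) with all libraries. Without library 4, Slc30a10 rose by 1.25 on the log2 scale (SE 0.24, edgeR adjusted p = 0.0407), 2.38-fold. That call was lost in 6 of 10 alternatives, with edgeR adjusted p-values of 0.169 without normal diet library 1, 0.168 without library 2, 0.139 without HS5, 0.14 without HS6, 0.112 without HS8 and 0.135 with HS5 and HS6 summed. Those fits called 4 to 15 genes in all. DESeq2 gave an adjusted p of 0.000154 without library 4, and the log2 fold change stayed between 1.07 and 1.40 over these alternatives.

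**Figure D2:**
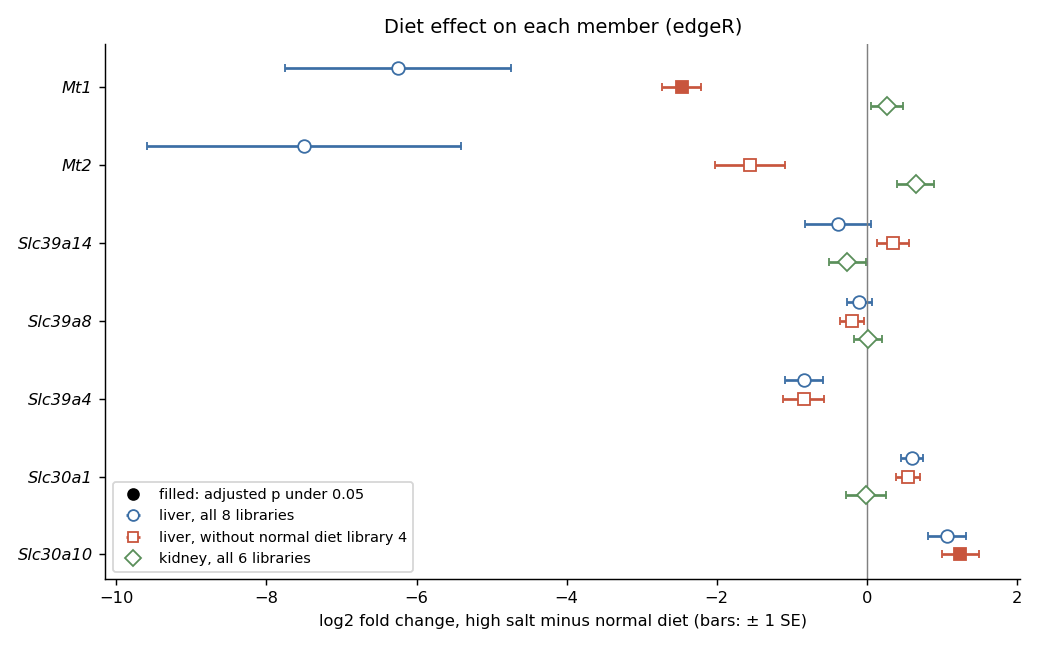
Log2 fold change of each gene, high salt minus normal diet, from edgeR, with bars of 1 SE, for 8 liver libraries, 7 liver libraries without normal diet library 4, and 6 kidney libraries. Filled symbols passed an adjusted p of 0.05: Mt1 at -2.47 and Slc30a10 at 1.25, both without library 4.

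Other measured groups moved with library 4. The 20 acute phase genes, which encode mostly plasma proteins that hepatocytes make in inflammation and also the intracellular signalling inhibitor Socs3, summed to 104872 CPM there, against 15508 to 24115 in the other normal diet libraries and 11772 to 14304 on high salt. Library 4 was highest of the normal diet libraries for 19 of the 20, by more than 2-fold for 17, with haptoglobin (Hp) at 19524 CPM against 1499 to 3193. The exception was hepcidin (Hamp), at 560 CPM against 700 or more. The 6 neutrophil markers in the table summed to 54.5 CPM against 1.33 to 2.14, mostly S100a9 (31.7 CPM) and S100a8 (18.2 CPM), while Ly6g was at 0.264 CPM and Mpo and Camp were not in the table.

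Kupffer cell and macrophage markers summed to 296 CPM in library 4 against 121 to 189, with 7 of 8 highest there, and hepatocyte markers to 53645 against 74002 to 85621 CPM. The 9 glucocorticoid targets summed to 4139.8 CPM against 1819 to 3569, with 6 highest there and 0 by more than 2-fold. Lymphocyte markers were at 2.69 CPM against 2.1 to 3.35. Acute phase sums also differed between the diets without library 4, where 7 of 20 of these genes fell on high salt by edgeR and 0 rose, against 1.38% and 1.30% of all genes in those directions. Sums of 3 marker lists also separated the liver diets. Hepatocyte markers were at 53645 to 85621 CPM on the normal diet and 90915 to 109734 on high salt, although 4 of the 6 genes had a lower fitted value on high salt. That sum was mostly albumin (Alb), at 32441 to 50637 CPM and 67824 to 85226 CPM. Stellate cell and fibroblast markers were at 73.7 to 137 CPM (73.7 in library 4) and 153 to 170.2, with 6 of 6 higher on high salt and 0 called by edgeR. Pancreatic acinar markers, 2 of 6 in the table, were at 37.6 to 50.7 CPM (37.6 in library 4) and 14.2 to 35.3, with 0 called. That sum was mostly Cela1, at 36.6 to 48.9 CPM and 13.5 to 34.8 CPM. Cela1 was also at 29.2 to 63.2 CPM in kidney on the normal diet, so it does not mark pancreatic tissue alone here. The part of these groups in the values of the members was not tested.

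**Figure D3:**
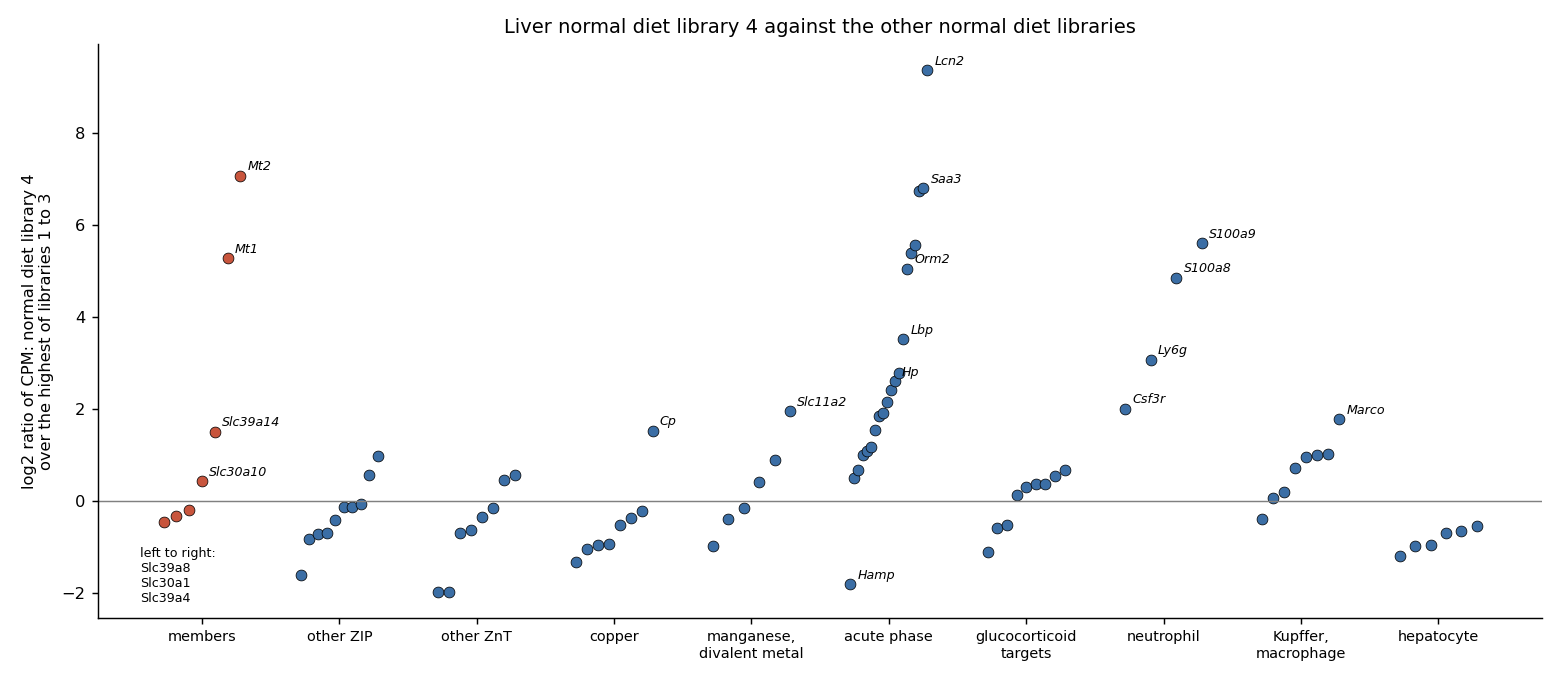
Log2 ratio of the CPM in normal diet liver library 4 to the highest of normal diet libraries 1 to 3, 1 point per gene with at least 10 counts in some liver library and above 0 in those compared, by gene list. Mt2 and Mt1 lie among the acute phase genes in size, Slc39a14 lies near Cp, the other 4 members lie near 0, and all 6 hepatocyte markers lie under 0.

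The balance of the metallothioneins was compared within each library, where scaling has no part. Mt1 made up 94.6%, 76.8%, 85.3% and 56.7% of the Mt1 plus Mt2 counts in normal diet liver libraries 1 to 4, and 71.6%, 77.7%, 78.1% and 79.7% on high salt. Library 4 was lowest and library 1 highest, with 95% Wilson intervals of 56.3% to 57.0% and 93.2% to 95.7%, which cover counting error only. The means were 78.3% ± 16.2 (SD, n = 4) and 76.8% ± 3.54 (SD, n = 4). The difference of -1.56 percentage points lay within the spread (two-sided exact permutation p = 0.886, adjusted over 2 tests 0.886). Without library 4 the normal diet mean was 85.6% ± 8.9 (SD, n = 3) and the difference -8.78 points (two-sided exact permutation p = 0.171). Per length of the principal transcript, Mt1 exceeded Mt2 by 16.3-fold in normal diet library 1, 1.22-fold in library 4 and 2.35-fold to 3.65-fold on high salt. Per length of all annotated exons the ratio of Mt1 to Mt2 was 8.26 in library 1 and 0.617 in library 4, so the order in library 4 turned with the length used.

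In kidney the Mt1 share was 76.2%, 75.7% and 74.3% on the normal diet and 74.7%, 68.3% and 67.2% on high salt. The diets overlapped by 1 library, and the difference was -5.38 percentage points (two-sided exact permutation p = 0.2, adjusted over 2 tests 0.4, where 3 against 3 cannot go below 0.1).

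**Figure D4:**
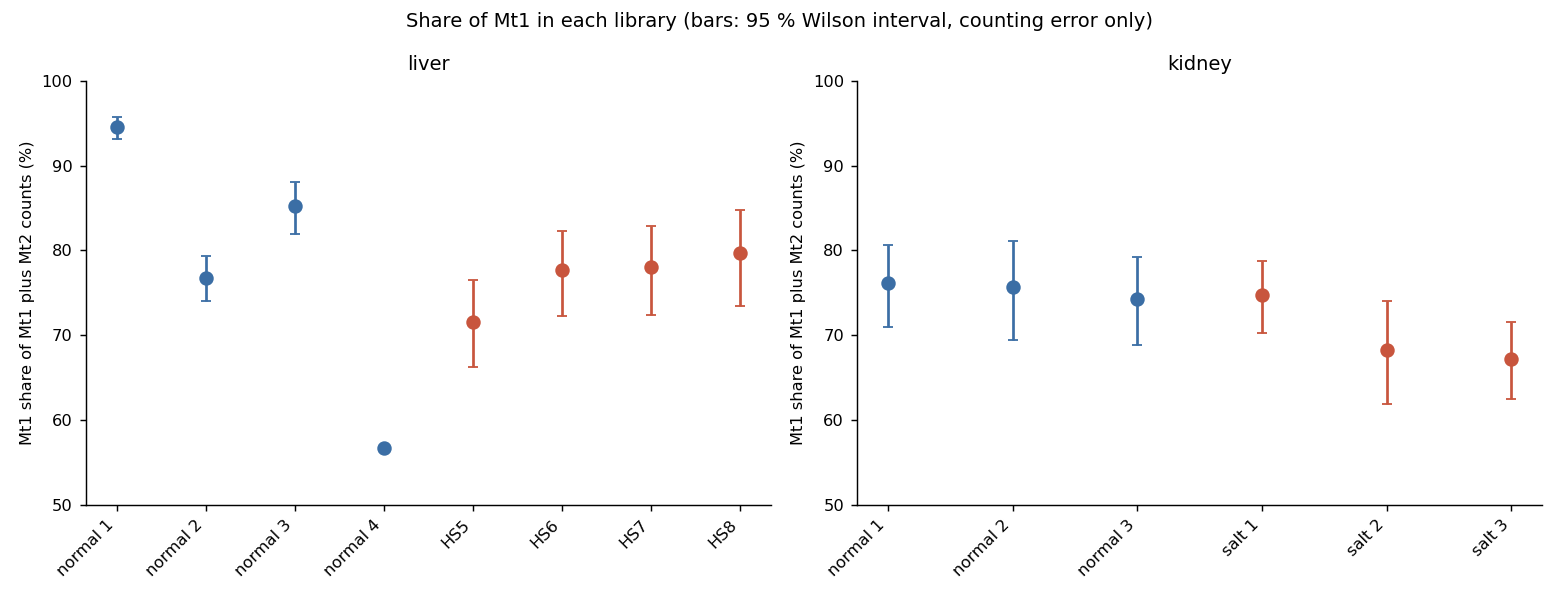
Mt1 as a percentage of Mt1 plus Mt2 counts in each library of liver (left) and kidney (right), with 95% Wilson intervals and an axis from 50% to 100%. Normal diet liver library 4 is lowest at 56.7% and library 1 highest at 94.6%, while the other 12 libraries lie between 67.2% and 85.3%.

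In kidney, no member passed the diet test, and Mt2 was the member whose diets did not overlap. Mt2 measured 3.45, 2.87 and 3.29 CPM on the normal diet and 4.56, 4.47 and 6.09 CPM on high salt. Every high salt library was above every normal diet library, with high salt library 3 highest. The log2 fold change of Mt2 was 0.65 (SE 0.25, edgeR unadjusted p = 0.0282, adjusted p = 0.9996). Summed hepatocyte markers also separated the kidney diets, at 843 to 1318 CPM on the normal diet and 1438 to 1634 on high salt. Cyp2e1 made up most of that sum, at 787 to 1224 CPM and 1339 to 1523 CPM. Albumin (Alb) went the other way, averaging 16.5 CPM and 6.58 CPM, with overlap. Of 5 of these genes tested, 3 had a higher and 2 a lower fitted value on high salt, and edgeR called 0. The part of these markers in the Mt2 values was not tested. Mt1 measured 11.0, 8.96 and 9.54 CPM against 13.4, 9.64 and 12.5 CPM, with overlap, and a log2 fold change of 0.27 (SE 0.21, edgeR unadjusted p = 0.24).

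Slc39a14 in kidney measured 32.6, 19.7 and 21.9 CPM on the normal diet and 17.0, 23.4 and 21.7 CPM on high salt, with normal diet library 1 highest. Slc39a8 measured 88.5, 81.8 and 96.1 CPM against 78.5, 97.1 and 93.4 CPM. Slc30a1 measured 72.8, 41.3 and 53.2 CPM against 56.9, 43.9 and 65.5 CPM. All 3 transporters overlapped between the diets. edgeR called 0 of 5 members, where it called 0% of 15847 genes. At an unadjusted p under 0.05 there was 1 of 5, against 2.01% of genes, DESeq2 called no member and 0.0694% of genes, and 1 of 5 did not overlap, against 6.92% of genes. Slc39a4 was listed in the deposited normalized kidney table at up to 2.41, with 3 libraries at 0.

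The difference of the diet effect between tissues was tested as an interaction over all 14 libraries. Mt1 had an interaction of -6.45 on the log2 scale (liver minus kidney, SE 1.64, edgeR adjusted p = 0.211) and Mt2 one of -8.08 (SE 2.27, edgeR adjusted p = 0.27). Without liver library 4, the Mt1 diet effect differed between the tissues by -2.75 (edgeR adjusted p = 0.0399), in a fit that called 3 of 16585 genes, and that of Mt2 by -2.22 (edgeR adjusted p = 0.196). With all libraries, edgeR called 0 of 5 members and 0% of 16633 genes; 2 of 5 members had an unadjusted p under 0.05, against 10.1% of genes, and DESeq2 called no member and 0.874% of genes, with no p for Mt1 and Mt2. The interaction of Slc30a1 was 0.62 (SE 0.30, edgeR adjusted p = 0.511), or 0.56 without liver library 4 (edgeR adjusted p = 0.432).

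Levels between genes were compared per kilobase of the principal transcript. The order depends on that choice. All annotated exons span 1246 bases for Mt1 against 549 in its principal transcript, 7664 against 3533 for Slc39a8 and 10550 against 4926 for Slc39a14. For Slc30a1 either length is 5244 bases. On high salt, Slc39a14 led the liver at 20.8 to 32.3 CPM per kb in all 4 libraries, above every other member, and Mt1 followed at 4.92 to 7.74, which overlapped Slc39a4 at 2.93 to 6.77 and Slc30a1 at 4.82 to 6.23. In normal diet libraries 1 to 3, Mt1 at 23.9 to 48.5 CPM per kb overlapped Slc39a14 at 17.4 to 27.7. Slc30a10 was last or next to last in 8 of 8 liver libraries, at 1.18 to 4.36 CPM per kb. In kidney Slc39a8 at 22.2 to 27.5 and Mt1 at 16.3 to 24.5 CPM per kb overlapped at the top, Slc30a1 at 7.88 to 13.9 overlapped Mt2 at 5.62 to 11.9, and Slc39a14 was last in all 6 libraries at 3.45 to 6.62.

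On the normal diet, the importers of the 2 organs differed in opposite directions, with Slc39a14 higher in liver and Slc39a8 higher in kidney. Tissue cannot be told apart from the separate tables and depths. Slc39a14 was 10.3-fold higher in liver (log2 3.37, edgeR adjusted p = 0.00075), or 2.62 on the log2 scale without library 4. Slc39a8 was 4.03-fold lower in liver (log2 -2.01, edgeR adjusted p = 3.26e-05), and Slc30a1 was also lower there (log2 -1.02, edgeR adjusted p = 0.00511). Without library 4 these were -1.93 for Slc39a8 (edgeR adjusted p = 0.000125) and -0.99 for Slc30a1 (edgeR adjusted p = 0.0128). The 4 liver and 3 kidney libraries of each of these 3 genes did not overlap. The share of all genes without overlap between the tissues was not computed, so this does not set them apart. edgeR called 5 of 5 members, where it called 58.5% of 15688 genes, and DESeq2 called 3, against 61.4% of genes. Without library 4, edgeR called 4 of 5 members and 57.1% of 15172 genes.

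Mt1 was higher in liver by 5.33 on the log2 scale (edgeR adjusted p = 0.0176), and by 1.53 without liver library 4 (edgeR adjusted p = 0.00264). Leaving out kidney library 1, 2 or 3 gave Mt1 adjusted p-values of 0.0636, 0.0568 and 0.0561. Mt2 was higher by 6.50 (edgeR adjusted p = 0.0308), but by 0.54 without liver library 4 (edgeR adjusted p = 0.385), and by 6.59, 6.41 and 6.51 without kidney library 1, 2 or 3 (edgeR adjusted p = 0.0982, 0.0856 and 0.0845). The Mt2 call was lost without any 1 of these 4 libraries.

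**Figure D5:**
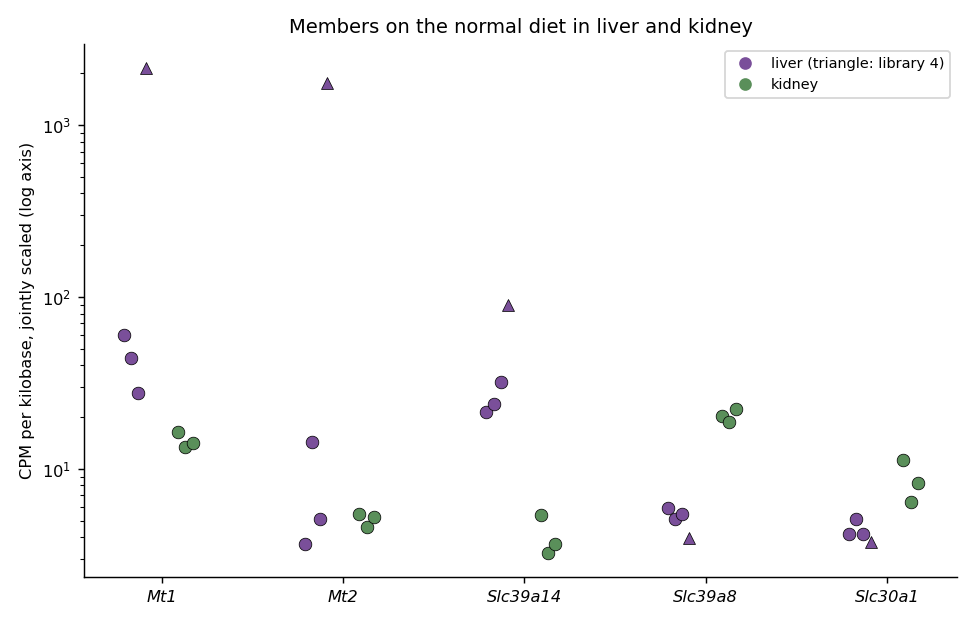
CPM per kilobase, scaled jointly over both tissues, of the 5 genes counted in liver and kidney, normal diet libraries only, on a log axis. Slc39a14 is higher in every liver library (21.4 to 89.5 against 3.25 to 5.39) and Slc39a8 in every kidney library (18.8 to 22.3 against 3.96 to 5.88), and the triangle is liver library 4.

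A list of 36 other genes of zinc, copper and manganese handling and metallothionein control was read in the same fits. For the diet in liver, 31 were tested and edgeR called 0, with 15 higher and 16 lower and a median log2 fold change of -0.10, against -0.02 over all genes. Without library 4 the calls were also 0, with a median of -0.02 against -0.0021 over all genes. In kidney 30 were tested and 0 called, with a median of -0.03 against -0.02. Mtf1, the zinc-sensing activator, was at 11.2 to 13.5 CPM on the normal diet and 10.5 to 16.3 CPM on high salt in liver.

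The most abundant genes of that list per kilobase in liver were Cp (ceruloplasmin, the copper carrier of plasma), Atox1 and Ccs (copper chaperones), and in kidney Atox1, Slc31a1 (the copper importer CTR1) and Ccs. Cp reached 2186 CPM in library 4 against 654 to 755 in the other normal diet libraries and 658 to 724 on high salt. Between the organs on the normal diet, edgeR called 11 of 30 higher and 8 lower in liver, against 30.0% and 28.5% of all genes. Slc30a2 (ZnT2) was lower in liver (log2 difference -9.62), Slc39a10 (ZIP10) had a log2 difference of -3.55, Ccs of 3.16, Atp7b (a copper-exporting ATPase) of 2.94 and Cp of 5.40, with edgeR adjusted p-values from 4.03e-07 to 4.7e-05. Without library 4 these differences were -9.49, -3.54, 3.21, 2.98 and 4.77, each still called by edgeR. That fit called 11 of 30 genes higher and 9 lower in liver, where it called 57.1% of 15172 genes in either direction.

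The genes whose log2 CPM followed a member most closely were ranked by Pearson's r, as a description. Over 8 liver libraries and 12178 genes, Mt1 plus Mt2 was followed by Tmem176b (r = 0.997, and 0.984 without library 4), Tmem176a (0.991, 0.959), Mpeg1 (0.987, 0.95), Hp (0.986, 0.923) and Clu (0.986, 0.981). Tmem176b, for example, was at 451 CPM in library 4, 156 to 180 in the other normal diet libraries and 110.2 to 125 on high salt. Slc39a14 was followed by Tbl2 (0.987, 0.951), Tmem87b (0.968, 0.845), Ppil4 (0.963, 0.859), Chd9 (0.962, 0.815) and B3galt1 (0.961, 0.87). Slc30a10 was followed by Thrap3 (0.991, 0.992), Zfp687 (0.989, 0.992), Thra (0.983, 0.983), Dnmt1 (0.981, 0.982) and Mta1 (0.98, 0.986).

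In kidney, over 6 libraries and 11816 genes, Mt1 plus Mt2 was followed by Man1a (r = 0.994), Pipox (0.991), Oasl2 (0.985), Pja1 (0.984) and Bin1 (0.981), and Slc39a14 by Zgpat (0.977), Snx3 (0.971), Pigl (0.97), Myo5a (0.969) and Slc22a26 (0.968). These genes were picked as the highest of many, the libraries share diet, depth and composition, and no test was made.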

How the data were processed

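The authors deposited expected counts per gene (Partek expectation-maximisation, per the file headers) and normalized values, a signal per gene whose method is not given in the sources used here. STAR 2.5.3a, Partek 7.0, DESeq2 and mm10 appear, without roles, per the submitters' processing notes. Libraries were SMARTer mRNA, per the labels' protocols.

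Rounded expected counts went into edgeR 4.0.16 (filterByExpr, TMM, quasi-likelihood test) under R 4.3.3, by tissue, with Benjamini-Hochberg adjustment over all genes tested. CPM used the TMM library sizes. Alternatives used DESeq2 1.42.0 and limma 3.58.1 (log2 of deposited normalized signal plus 1 or 0.1). Fits were tested on simulated data. Likeness used genes with a mean of 50 counts and a prior count of 2. High salt liver columns carry numbers that match no sample title, so no pairing was set in liver. Kidney deviations of same-numbered libraries correlated by 0.41, 0.37 and -0.09, so the numbers were not taken as pairs. Members, lists and tests were chosen with earlier results of these data known. All members were named. From the metal lists the text names the 5 genes called with the smallest p per comparison, the 3 most abundant per tissue and Mtf1, and up to 3 genes of each marker list. The absent neutrophil markers, Socs3, Cyp2e1, Alb, Cela1, the genes of the closing observations and the labels in the plot of library 4 were chosen after their values were seen. Replicate spread limits most values (biological coefficient of variation 0.314 in liver, 0.3 in kidney).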

Additional observations from a re-analysis of the deposited data

Results flagged for a closer look

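Normal diet liver library 4 was far from the other 3 normal diet libraries by Dixon's criterion for 4 quantities. The criterion was applied to 9 quantities (the 7 members, Mt1 plus Mt2, and the Mt1 share) in each of the 2 liver diet groups. That makes 18 groups of 4 libraries, where chance gives about 1 in 20 for independent, normally distributed values. These quantities are not independent, as Mt1 plus Mt2 is the sum of 2 others. Library 4 had been singled out beforehand, so this describes its distance and is no separate finding. The 4 groups past it were all normal diet groups, each through library 4. Mt1 was at 1037 CPM there, with 26.6 CPM in the nearest library. Mt2 was at 793 CPM, with 5.91 CPM in the nearest. Slc39a14 was at 389 CPM, with 137 CPM in the nearest, a gap-to-range ratio of 0.833 against the critical value of 0.829. Mt1 plus Mt2 were at 1829.9 CPM, with 28.1 CPM in the nearest.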

How the results depend on the processing

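Alternatives for liver without library 4, and the replicate block between tissues, were chosen after seeing the data. In liver, 0 members called by edgeR became 3 with DESeq2 (7.60% of all genes). With all 14 libraries in 1 fit there were 2 (Mt1 and Mt2, of 5 tested, 1.56%). There were 0 to 2 when each library was left out, with 1 (Mt1) without normal diet library 3 (4.94%) and 2 (Mt1 and Slc30a10) without library 4 (2.68%). With HS5 and HS6 summed there were 0, in a fit that called 12 genes (0.0779%), and Mt1 was at -6.30 (edgeR adjusted p = 0.249). Leaving out normal diet libraries 1 and 2 together, with library 4 kept, also gave 0 (52 genes, 0.327%), and Mt1 was at -7.18 (edgeR adjusted p = 0.0717). Without library 4, 2 called members became 5 with DESeq2 (16.9% of all genes), 1 with HS5 and HS6 summed (0.0858%), and 0 to 5 with another library left out: 0 without normal diet library 2 (0.0254%), 5 without library 3 (40.2%), 2 without HS7 (6.44%), and 1 without library 1, HS5, HS6 or HS8 (13 to 15 genes in all). The interaction gave 0 to 1 with each library left out, being 1 (Mt1) without liver library 4 (0.0181%). Between tissues, 5 became 3 with DESeq2, which gave no p for Mt1 and Mt2 (61.4%), and 3 to 5 with each library left out (47.6% to 58.4%). The Mt1 share difference in liver ran from -8.78 to 3.86 percentage points with each library left out, being -8.78 without normal diet library 4. It was 3.86 without normal diet library 1. Leaving out library 3 gave 0.75, and leaving out HS5 gave 0.15. The other counts and shares kept their side under every alternative run.

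Directions turned for members that were not called. In liver Slc39a14 ran from -0.62 to 0.35 with each library left out, being 0.35 without library 4, and its interaction ran from -0.34 to 0.60, being 0.60 without liver library 4, 0.020 without HS8, 0.052 without kidney normal diet library 2 and 0.0098 without kidney high salt library 2. In kidney Slc39a8 ran from -0.046 to 0.10, being -0.044 without normal diet library 2, and -0.046 and -0.016 without high salt libraries 2 and 3. Kidney Slc30a1, at -0.0090, ran from -0.19 to 0.23 with each library left out, and became 0.011 with upper quartile scaling, 0.0029 with at least 10 counts in every library, 0.012 with limma at either pseudocount, 0.23 without normal diet library 1 and 0.13 without high salt library 2. The cause was not tested. With the replicate block, kidney Slc30a1 was at 0.010 and 0 of 5 members were called, as without it. Between tissues, libraries 1 to 3 with the replicate block gave 0.30 for Mt2 and 1.48 for Mt1. No paired analysis was possible in liver because the high salt columns carry no matching number.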

Other observations

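Slc11a2, the divalent metal importer DMT1, was singled out after its values were seen. It was at 76.2 CPM in normal diet liver library 4, against 17.0 to 19.7 CPM in the other normal diet libraries and 15.4 to 18.4 CPM on high salt. Of the 36 other metal genes, the liver diets did not overlap for 5 (Slc39a1, Slc30a3, Slc30a5, Slc31a1 and Atp7b), with no call by edgeR. That is 5 of 31 tested, where the diets did not overlap for 12.5% of all genes. Without library 4 it was 7 of 31, with Slc31a2 and Atp13a1 added, against 21.5% of all genes. Slc39a1, the plasma membrane importer ZIP1, was at 55.2 to 81.7 CPM on the normal diet and 46.6 to 48.8 CPM on high salt (edgeR adjusted p = 0.0891, and 0.0737 without library 4). Slc30a5, a zinc transporter of the secretory pathway, was at 31.2 to 52.7 CPM and 21.4 to 26.7 CPM (edgeR adjusted p = 0.0981, and 0.073 without library 4). Atp7b was at 11.2 to 14.8 CPM and 18.3 to 24.2 CPM (edgeR adjusted p = 0.0773, and 0.0745 without library 4). In kidney the diets did not overlap for 3 of 30 tested (Slc39a11, Slc31a1 and Atp2c1), against 6.92% of all genes. Mt3 was at 0.351 CPM or less in kidney.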
